A study of Mus musculus with 2 samples.

Results

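Cluster 14 of the retinal single-cell data is the largest group of amacrine cells outside cluster 6, and its cells carried the transcripts of a glycinergic interneuron. Its members were every cell that the deposited cell table names AC (amacrine cell) and places in the cluster with most AC once cluster 6 is set aside. They numbered 437 of 1621 AC and of 30943 cells in all, with 223 in the Ptbp1-Ctrl library and 214 in the Ptbp1-KO library. No cell of cluster 14 carried another cell type name. The remaining AC lay in cluster 6, with 771 cells, and in cluster 15, with 413 cells.

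Whole retinas of mice 30 days old were dissociated and profiled in droplets, with 1 library from 1 mouse per genotype. Ptbp1-Ctrl is labelled Chx10Cre, with Ptbp1+/+ given by the study, and Ptbp1-KO is labelled Chx10-Cre;Ptbp1lox/lox, so that both mice carried the Cre transgene and the methods describe both as female. The Chx10 promoter drives Cre in retinal progenitors, from which amacrine cells descend, so that the deletion can precede the birth of these neurons. Each genotype rests on 1 library, which means that every difference between genotypes below compares 2 libraries, has no replicate check and carries no p-value. A unique molecular identifier (UMI) marks 1 captured transcript, and intervals are exact 95% intervals that cover counting error only.

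Amacrine cells are the interneurons of the inner retina. Most release either GABA, which is made by the enzymes Gad1 and Gad2, or glycine, which is kept at high levels in the cell by the transporter Slc6a9. Slc32a1 loads both transmitters into synaptic vesicles. Glycinergic types tend to have narrow arbors that connect layers of the inner plexiform layer, and the best known, the AII cell, carries rod signals into cone pathways through gap junctions of the connexin Gjd2. Ptbp1 is an RNA-binding protein that represses neuronal exons in progenitors and glia, and Ptbp2 is its neuronal paralog.

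The cells of cluster 14 were deeply read, and those of the Ptbp1-KO library more deeply. The median cell held 2792 UMIs in Ptbp1-Ctrl against 4458.5 in Ptbp1-KO, and 1802 against 2468.5 detected genes, with a ratio of 1.60 for UMIs. Summed over its cells, the cluster had 670179 (Ptbp1-Ctrl) and 967425 (Ptbp1-KO) UMIs. Median mitochondrial shares were 1.70% and 1.48%. The median depth ratio was 1.63 in cluster 6, 1.5 in cluster 15 and 1.18 in rods. Levels are therefore given as CPM, which counts a gene for every 1000000 UMIs that the cluster held in that library, and shares of cells with a UMI are given after each cell was thinned to 1000 UMIs. Of all cells, 63 barcodes occurred in both libraries, and 1 cell of cluster 14 carried such a barcode.

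The first comparison asked whether the cluster took up the same part of the retina in both genotypes. Among AC, cluster 14 made up 33.0% (29.5 to 36.7) of 676 cells in Ptbp1-Ctrl and 22.6% (20.01 to 25.4) of 945 cells in Ptbp1-KO, a ratio of 0.686 between shares whose counting intervals did not overlap. Among all cells it made up 1.36% (1.19 to 1.55) of 16421 cells in Ptbp1-Ctrl and 1.47% (1.28 to 1.68) of 14522 cells in Ptbp1-KO, a ratio of 1.09 with overlapping intervals. The 2 denominators thus gave opposite directions. Cluster 6 stood at 1.78% (Ptbp1-Ctrl) and 3.29% (Ptbp1-KO) of all cells, a ratio of 1.84, and cluster 15 at 0.974% and 1.74%, a ratio of 1.79. The lower share of cluster 14 among AC in Ptbp1-KO accordingly stood beside larger shares of the other AC clusters among all cells. Differences between animals, dissociations and libraries cannot be told apart from genotype in these shares.

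**Figure D1:**
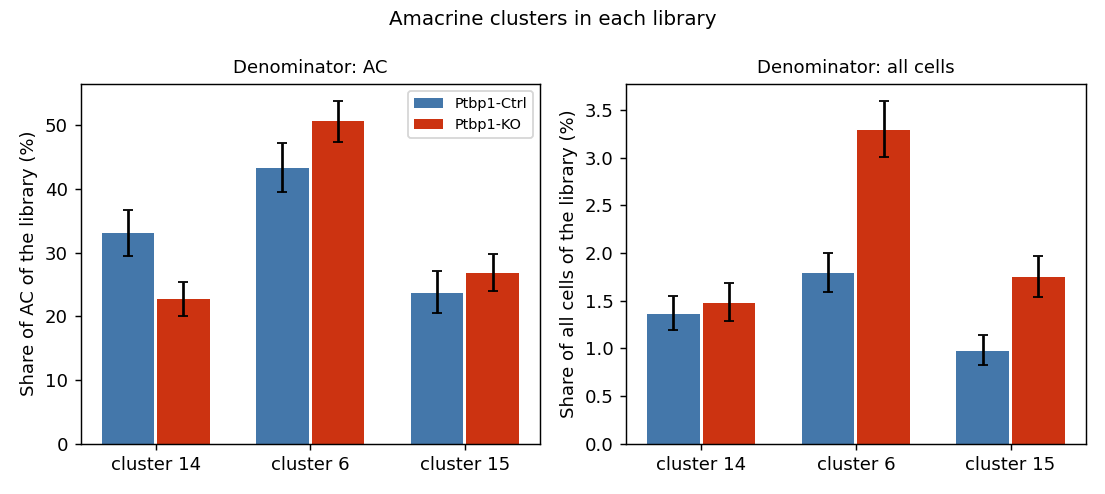
Share of each amacrine cluster among the AC of a library (left, percent) and among all its cells (right, percent), with bars for the 2 libraries and exact 95% counting intervals. Cluster 14 was at 33.0% and 22.6% of AC but at 1.36% and 1.47% of all cells, while clusters 6 and 15 had larger shares of all cells in Ptbp1-KO.

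Depth entered these shares, since the deposited cells had passed a minimum of 700 UMIs. When each Ptbp1-KO cell was thinned by the ratio of median AC depths and the minimum applied again, all 214 cluster 14 cells of that library still passed, and their share of AC was 24.4%. Among cells with at least 1000 UMIs the shares of AC were 35.2% and 24.0%.

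The transmitter genes placed cluster 14 on the glycinergic side in both libraries. Slc6a9 (chromosome 4, 117834506 to 117875198, mm10) stood at 1028 (Ptbp1-Ctrl) and 1289 CPM (Ptbp1-KO), against 151 and 200 CPM in cluster 6 and 864 and 918 CPM in cluster 15. Gad1 had 0 UMIs in the cluster in both libraries, which puts it at least 107-fold below cluster 6 in Ptbp1-Ctrl and at least 173-fold below in Ptbp1-KO when 3 counts per library are taken as the floor. A count of 0 in 223 and 214 cells allows a share of up to 1.35% and 1.40% of cells with a Gad1 UMI. The cells clustered on these genes, so the levels describe the cluster and are no test of it.

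Gad2 was low rather than absent. It stood at 34.3 (Ptbp1-Ctrl) and 36.2 CPM (Ptbp1-KO), against 250 and 279 CPM in cluster 6. The vesicular transporter Slc32a1, shared by GABA and glycine neurons, was at 221 (Ptbp1-Ctrl) and 249 CPM (Ptbp1-KO) and lay within 2-fold of both other clusters. Pax6, a transcription factor of amacrine and ganglion cells, was at 824 and 918 CPM, above the 471 and 564 CPM of cluster 6. Of the 5 marker genes given for the cluster, Slc6a9, Slc32a1 and Pax6 were therefore well detected, Gad2 was sparse and Gad1 was at 0, and the cells are called glycinergic-like here.

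**Figure D2:**
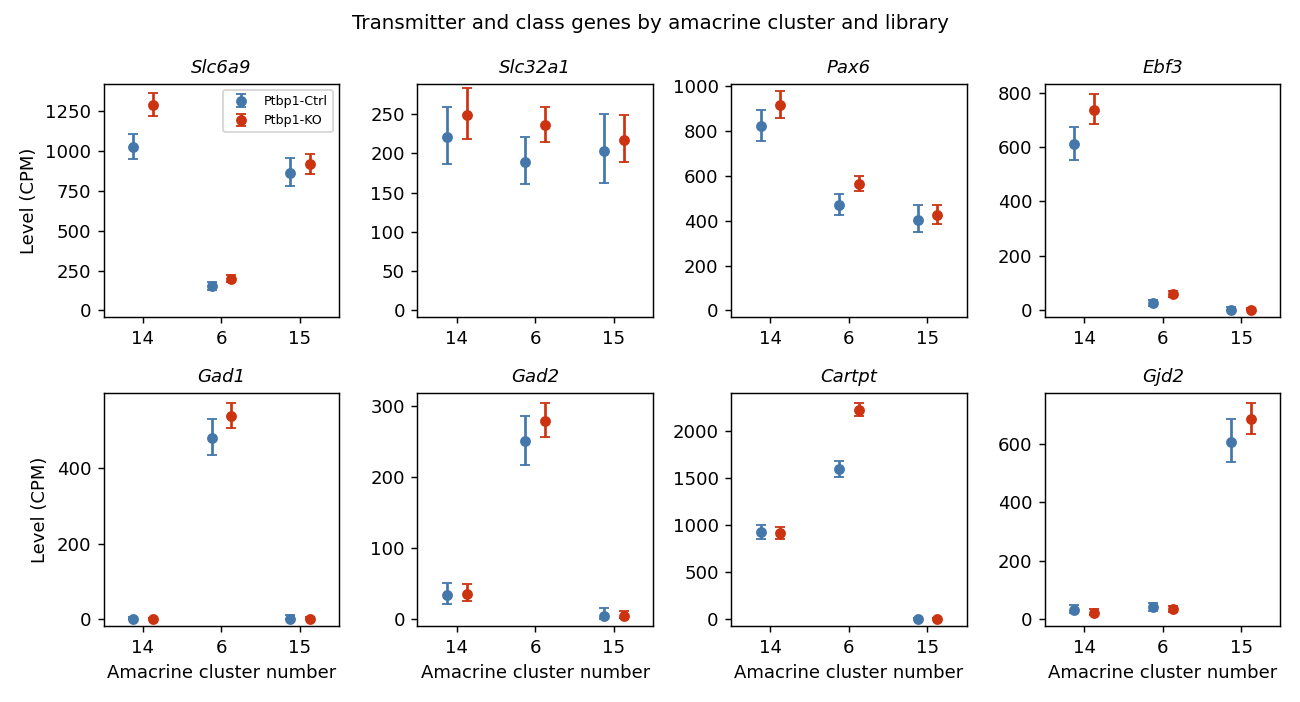
Level of 8 transmitter and class genes in CPM (vertical axes, linear, one scale per gene) in amacrine clusters 14, 6 and 15, with points for the 2 libraries and exact Poisson 95% intervals. Slc6a9 and Ebf3 were high in cluster 14 and Gad1 and Gad2 were high only in cluster 6 among the 3, while Gjd2 was high in cluster 15 and Cartpt was seen in clusters 14 and 6.

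Single cells gave the same picture. After thinning to 1000 UMIs, Slc6a9 had a UMI in 66.8% (60.2 to 73.0) of 220 cells in Ptbp1-Ctrl and 68.7% (62.0 to 74.8) of 214 cells in Ptbp1-KO. In the same thinned cells of cluster 6 the shares were 12.7% and 17.9%. Rods, taken here as a background for free RNA from broken cells, had a share of 3.83% in Ptbp1-Ctrl and 4.66% in Ptbp1-KO. The source of the Slc6a9 UMIs in rods was not tested. Without thinning, the shares in cluster 14 were 93.3% and 99.1%, and the median cell held 3 (Ptbp1-Ctrl) or 5 (Ptbp1-KO) copies of the transcript. Rods without thinning had 5.36% and 7.49%, at median depths of 1088 and 1288 UMIs.

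Gad2 was found in 21 cells of Ptbp1-Ctrl and 31 cells of Ptbp1-KO, and all of them also held Slc6a9. After thinning, Gad2 had a UMI in 11 of 220 cells in Ptbp1-Ctrl and 8 of 214 cells in Ptbp1-KO. The matching share in rods was 0.119% and 0.130%, so the low Gad2 signal stood above that of rods.

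Cluster 14 did not have the profile of AII cells. Gjd2 was at 32.8 and 22.7 CPM in the cluster against 608 and 685 CPM in cluster 15. Nfia, a transcription factor high in cluster 15 at 1589 and 1335 CPM, was at 178 and 111 CPM. The carbonic anhydrase gene Car2 was at 306 and 288 CPM against 1384 and 1336 CPM, and the reelin adaptor Dab1 at 1953 and 1917 CPM against 3835 and 3702 CPM. Prox1 was shared in part, with 477 and 553 CPM in cluster 14 and 841 and 846 CPM in cluster 15. Calb2, the gene of calretinin, was at 228 and 302 CPM in cluster 14, above the 143 CPM seen in cluster 15 in each library.

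A list of genes for the SEG and nGnG types, which are further narrow-field amacrine classes, was met only in part. Ebf3, a helix-loop-helix transcription factor of SEG cells (chromosome 7, 137193673 to 137314445), was at 610 (Ptbp1-Ctrl) and 737 CPM (Ptbp1-KO) against 25.8 and 60.3 CPM in cluster 6. Neurod6, an nGnG gene, had 0 UMIs in both libraries. Ppp1r17 was at 2.98 and 5.17 CPM. No name finer than glycinergic-like is given, because Ebf3 stood without these genes of the list.

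Other amacrine transmitters were almost missing. Chat, which makes acetylcholine in starburst cells, had 0 UMIs in both libraries, and the dopamine and catecholamine genes summed to 2.98 and 1.03 CPM over 6 genes. Slc17a8, the vesicular glutamate transporter of another amacrine type, was at 1.49 and 5.17 CPM. Of 16 neuropeptide genes, 9 had 0 UMIs in both libraries. The exception was Cartpt, the precursor of CART peptide, at 928 (Ptbp1-Ctrl) and 920 CPM (Ptbp1-KO). It had a UMI in 53.6% of thinned cells in Ptbp1-Ctrl and 50.5% in Ptbp1-KO. In cluster 6 the Cartpt level was higher, at 1595 and 2229 CPM, but it came from 12.7% and 10.7% of thinned cells, so that cluster 14 spread the peptide gene over more of its cells. Cluster 15 had 4.61 and 6.20 CPM.

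Transcription factors separated the cluster from the other AC in both directions. Of 26 amacrine factors, 17 were abundant enough to compare, and 7 were at least 2-fold higher and 5 at least 2-fold lower in cluster 14 than in all other AC in both libraries. Over all 4498 genes compared, 3.51% were at least 2-fold higher and 4.8% at least 2-fold lower in both libraries, or 158 and 216 genes, and 8.31% differed either way. Nfix was at 704 and 753 CPM and Nfib at 479 and 534 CPM, against 90.4 and 79.1 CPM and 107 and 68.1 CPM in cluster 6. Tfap2c was at 201 and 252 CPM, against 30.5 and 35.9 CPM in cluster 6. Its family members Tfap2a and Tfap2b went the other way, with Tfap2b at 16.4 and 14.5 CPM in cluster 14 against 677 and 799 CPM in cluster 15. Ebf1 was at 876 and 954 CPM, Meis2, a factor of GABAergic types, at 32.8 and 26.9 CPM.

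The genes furthest above the other AC in both libraries were led by Esr1, the estrogen receptor alpha gene (chromosome 10, 4611593 to 5005614). It was at 530 (Ptbp1-Ctrl) and 405 CPM (Ptbp1-KO) against 11.7 and 4.68 CPM in cluster 6 and 4.61 and 2.07 CPM in cluster 15. Its log2 ratio over all other AC was 5.83 in Ptbp1-Ctrl and 6.73 in Ptbp1-KO. Thinned cells of cluster 14 held an Esr1 UMI in 35.9% and 34.6% of cases, thinned rods in 0.136% and 0.291%. Esr1 or Ebf3 was seen in 88.3% and 94.9% of unthinned cells, which shows the pair spread across the cluster and not in a few cells.

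The following 19 were of varied function. Egfr, the receptor for epidermal growth factor, was at 230 and 246 CPM with log2 ratios of 5.21 and 4.23 over the other AC. Igf1, insulin-like growth factor, was at 331 and 313 CPM with ratios of 3.83 and 4.33. Fgf2 stood at 97.0 and 98.2 CPM with ratios of 3.26 and 3.29. The receptor kinase Ror1 was at 303 and 335 CPM, and the receptor phosphatase Ptprt at 1682 and 1713 CPM. Nuclear factors besides Ebf3 and Tfap2c in the set were Nr2f2 at 703 and 762 CPM and Nfix. The set also held the kainate receptor subunit Grik3, at 98.5 and 132 CPM. Thsd4 was at 725 and 694 CPM, and Necab3, of a family of calcium-binding proteins, at 128 and 122 CPM. The rest were Ier5, Ust, B130024G19Rik, Colgalt2, Sh3rf3, Spats2l and Htra1, with log2 ratios from 3.20 to 4.65 in the 2 libraries.

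**Figure D3:**
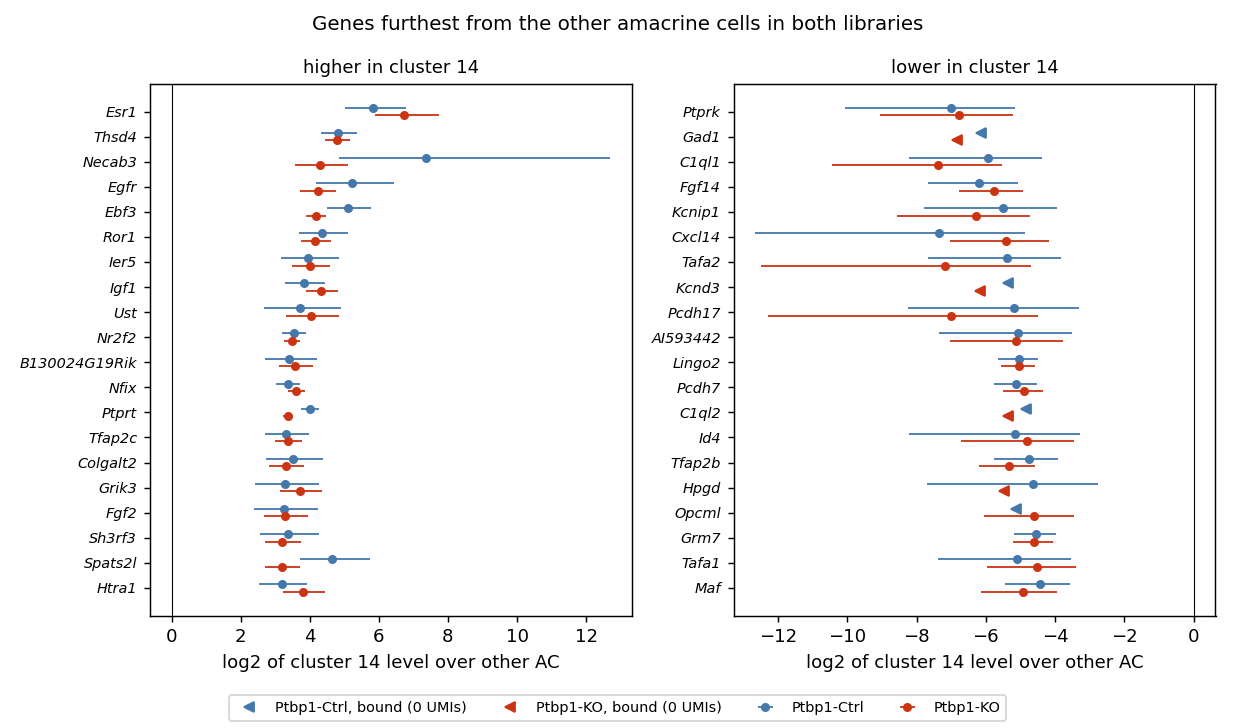
Log2 ratio of cluster 14 over all other AC (horizontal axes) for the 20 genes furthest above and the 20 furthest below in both libraries, with exact 95% counting intervals. Triangles mark genes with 0 UMIs in cluster 14, drawn at the limit that 3 counts allow. Esr1 led with 5.83 and 6.73, and the order followed the smaller of the 2 ratios.

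The genes furthest below the other AC were largely those of cluster 6. Besides Gad1, the potassium channel gene Kcnd3 and the synaptic C1q-like gene C1ql2 had 0 UMIs in both libraries, at least 61.1-fold and 43.0-fold below cluster 6 in Ptbp1-Ctrl and at least 106-fold and 62.1-fold below in Ptbp1-KO. Fgf14 was at 8.95 and 11.4 CPM against 998 and 920 CPM in cluster 6. Grm7, a presynaptic metabotropic glutamate receptor, was at 35.8 and 28.9 CPM against 1230 and 1022 CPM. The adhesion gene Lingo2 was low against both other clusters, at 41.8 and 38.3 CPM against 1344 and 1273 CPM in cluster 6 and 1444 and 1231 CPM in cluster 15. The others were Ptprk, C1ql1, Kcnip1, Cxcl14, Tafa2, Pcdh17, AI593442, Pcdh7, Id4, Tfap2b, Hpgd, Opcml, Tafa1 and Maf.

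Members of the receptor and channel lists lay on both sides of the other AC. At least 2-fold higher and lower in both libraries were 0 and 3 of 9 GABA receptor genes compared, 1 and 1 of 4 glycine receptor genes, and 1 and 1 of 11 ionotropic glutamate receptor genes. The counts were 2 and 6 of 14 potassium channel genes, 1 and 2 of 10 calcium channel genes, and 0 and 2 of 5 sodium channel genes, against 3.51% and 4.8% of all genes. Among glycine receptors, the subunit Glra2 was at 378 (Ptbp1-Ctrl) and 417 CPM (Ptbp1-KO) against 112 and 98.3 CPM in cluster 6 and 29.9 and 22.7 CPM in cluster 15. Among GABA receptors, Gabrg3 was at 1625 and 1760 CPM, above cluster 6 at 336 and 301 CPM and below cluster 15 at 2128 and 1820 CPM. Among glutamate receptors, Grik2 was at 1307 and 1803 CPM and Grm8 at 2010 and 2219 CPM, with Grm8 at 140 and 116 CPM in cluster 15. The AMPA receptor subunit Gria1 and the NMDA receptor subunit Grin2a were near 0, with 9 and 1 UMIs over both libraries.

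The calcium channel subunit Cacna2d3 was at 1171 and 1281 CPM, with log2 ratios of 2.96 and 2.99 over the other AC, while its relative Cacna2d1 was at 11.9 and 13.4 CPM with ratios of -4.20 and -3.91. Among potassium channels, Kcnb2 was at 1470 and 1665 CPM and Kcnh7 at 2438 and 2407 CPM, with ratios over the other AC of 2.34 and 2.82 and of 1.5 and 1.36. Kcnma1, the large-conductance potassium channel, was at 469 and 409 CPM against 3478 and 3476 CPM in cluster 15. Scn1a was at 98.5 and 77.5 CPM against 825 and 968 CPM in cluster 15. Of 17 vesicle release genes compared, none was at least 2-fold higher and 1 at least 2-fold lower than in the other AC in both libraries, against 8.31% of all genes either way.

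Between the 2 libraries, few of the well-detected genes of cluster 14 differed by 2-fold or more. Ptbp1 itself (chromosome 10, 79854427 to 79864771) had 13 UMIs in Ptbp1-Ctrl, or 19.4 CPM, and 0 UMIs in Ptbp1-KO, at least 6.26-fold lower with 3 counts as the floor. The floxed allele loses the promoter and the opening exon, per the methods. The reads counted here come from the transcript end and may lie outside the removed part. Ptbp1 had 14 UMIs in Ptbp1-Ctrl and 1 UMI in Ptbp1-KO in each of clusters 6 and 15. In rods, 251 of 10058 cells held a Ptbp1 UMI in Ptbp1-Ctrl and 3 of 9301 in Ptbp1-KO. Whether the Ptbp1 UMIs of cluster 14 came from its own cells or from free RNA was not tested. Ptbp2 was at 206 CPM in both libraries, with a log2 ratio of 0.00 (-0.32 to 0.32).

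Of 4390 genes with a mean of at least 50 CPM and at least 50 UMIs over both libraries, 9 were at least 2-fold higher in Ptbp1-KO (0.205%) and 13 at least 2-fold lower (0.296%), which makes 0.501% either way. The median log2 ratio of Ptbp1-KO over Ptbp1-Ctrl was -0.01. Counting intervals lay above 0 for 272 genes, or 6.2%, and below 0 for 307 genes, or 6.99%. These counts describe the size of differences between 2 libraries and are not counts of changed genes.

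**Figure D4:**
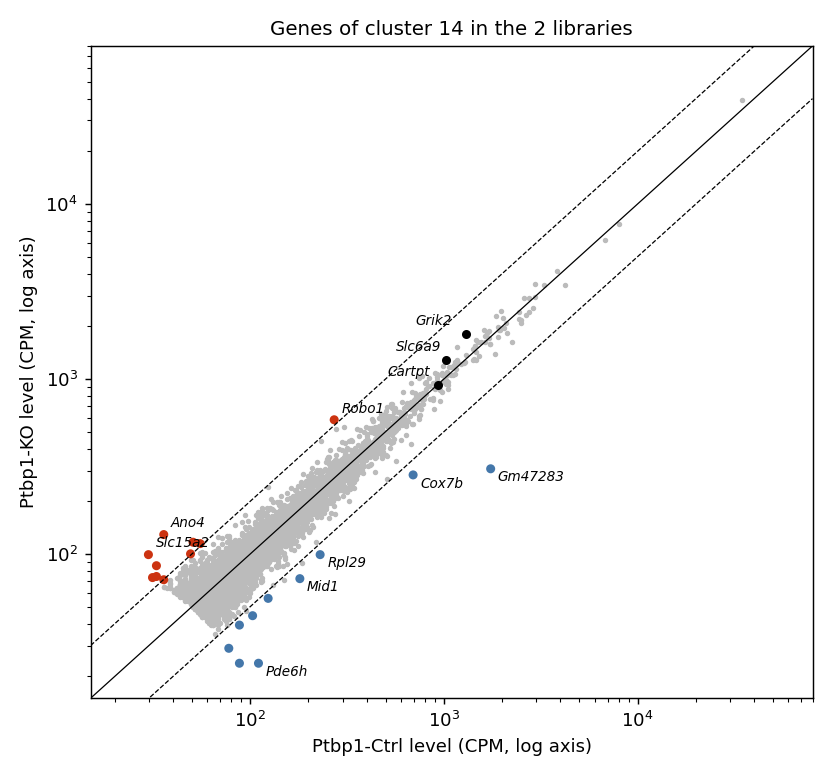
Level of each of 4390 genes in cluster 14 in Ptbp1-Ctrl (horizontal axis, CPM, log axis) and Ptbp1-KO (vertical axis, CPM, log axis), with the line of equality and dashed lines at 2-fold. Red marks the 10 genes of largest ratio, blue the 10 of smallest ratio, and Slc6a9, Cartpt and Grik2 are black and lie between the dashed lines.

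Ano4, which belongs to the anoctamin family of membrane proteins (chromosome 10, 88948994 to 89344762), had the largest ratio. It had 24 UMIs (35.8 CPM) in Ptbp1-Ctrl against 125 UMIs (129 CPM) in Ptbp1-KO, and its log2 ratio was 1.85 (1.21 to 2.55). Cells with an Ano4 UMI numbered 20 of 223 in Ptbp1-Ctrl and 89 of 214 in Ptbp1-KO. After thinning their shares were 2.27% (0.742 to 5.22) and 11.2% (7.32 to 16.2). The thinned cells hold a part of the same UMIs, and the gene was picked for its ratio, so this is no separate check. The Ano4 level in Ptbp1-Ctrl lay under the 50 CPM that the mean of both libraries had to reach. The same gene gave log2 ratios of -0.10 (-0.44 to 0.24) in cluster 6 and 0.17 (-0.07 to 0.42) in cluster 15. Outside AC it was higher in Ptbp1-KO in bipolar cells at 0.36, in rods at 0.77 and in cones at 2.29, the last from 3 and 12 UMIs. Cluster 15 used Ano4 in both libraries, with 36.4% and 39.8% of thinned cells.

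Robo1, an axon guidance receptor for Slit ligands (chromosome 16, 72308306 to 73046095), was the gene with most UMIs among the 10 that were higher. It went from 272 (Ptbp1-Ctrl) to 585 CPM (Ptbp1-KO), giving a log2 ratio of 1.11 (0.86 to 1.36), against 0.16 (0.01 to 0.30) in cluster 6. Rods had a ratio of like size at 1.10 (0.65 to 1.57), but at levels of only 4.45 and 9.52 CPM. Müller glia had one of 0.71 (0.40 to 1.02), at 25.1 and 40.9 CPM. A higher value in Ptbp1-KO was thus not seen in cluster 14 alone. The part of free RNA in these low levels was not tested. Thinned cells with a Robo1 UMI made up 20.9% (15.7 to 26.9) in Ptbp1-Ctrl and 38.3% (31.8 to 45.2) in Ptbp1-KO. In cluster 15 the gene was at most sparse, with 0 of 154 and 3 of 249 thinned cells. With the summed UMIs of thinned cells the log2 ratio was 0.73.

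Slc15a2, a proton-coupled peptide transporter (chromosome 16, 36750177 to 36784962), was at 29.8 (Ptbp1-Ctrl) and 99.2 CPM (Ptbp1-KO), a log2 ratio of 1.73 (1.03 to 2.51). It was higher in the Ptbp1-KO library elsewhere too, with ratios of 1.03 in cluster 6, 3.24 in cluster 15, 2.11 in bipolar cells and 2.31 in rods. The teneurin Tenm1 had a ratio of 1.39 (0.69 to 2.14), the phosphatase Dusp10 of 1.20 (0.64 to 1.80) and Maged2 of 1.18 (0.47 to 1.94), and all of these had counting intervals that held 0 in clusters 6 and 15. Outside AC, Tenm1 was higher in Ptbp1-KO in Müller glia at 1.67 (0.89 to 2.51) and in rods at 0.76 (0.26 to 1.28). Its levels there were low, at 3.22 and 10.2 CPM in Müller glia and 3.91 and 6.62 CPM in rods. Dusp10 and Maged2 had intervals that held 0 in bipolar cells, rods, cones and Müller glia.

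Eif2b3, a subunit of a translation initiation factor, had 21 UMIs in Ptbp1-Ctrl against 71 in Ptbp1-KO, with a log2 ratio of 1.23, but 1 cell of Ptbp1-KO held 26 of them. Without the cell richest in Eif2b3 in each library the ratio was 0.79. Ptchd4 had a ratio of 1.06, the peroxisomal transporter family gene Abcd4 of 1.03 and Gprasp2 of 0.99, which lay just under 2-fold. Abcd4 was higher in Ptbp1-KO in the other types too, with ratios of 0.55 in cluster 6, 0.67 in cluster 15, 1.26 in bipolar cells, 1.03 in rods, 1.58 in cones and 1.22 in Müller glia, all with intervals above 0. Ptchd4 had ratios of 2.24 in bipolar cells, at 1.63 and 7.72 CPM, and 2.25 in Müller glia, at 1.69 and 8.06 CPM. In cluster 6 its ratio was -0.14 (-0.70 to 0.45). For the other 9 genes the ratio without the richest cells stayed between 1.05 and 1.93.

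The genes that were lower in Ptbp1-KO were mostly lower in other cell types as well. Gm47283, annotated on chromosome Y at 90784738 to 90816464, went from 1744 (Ptbp1-Ctrl) to 307 CPM (Ptbp1-KO), giving a log2 ratio of -2.51 (-2.69 to -2.32). Its ratio was -2.54 in cluster 6, -2.56 in cluster 15, -2.16 in rods and -2.20 in Müller glia. Cox7b, a subunit of respiratory complex IV, went from 694 to 283 CPM, a ratio of -1.29 (-1.51 to -1.07), and lay between -1.06 and -1.38 in clusters 6 and 15, bipolar cells, rods, cones and Müller glia. Magt1, a magnesium transporter and part of the oligosaccharide transferase, had a ratio of -1.89 (-2.65 to -1.17) in cluster 14. Magt1 (105968084 to 106011906) and Cox7b (106015700 to 106022450) are neighbours on chromosome X.

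Mid1, Rpl29 and Gm10260 had log2 ratios of -1.32, -1.21 and -1.16 in cluster 14. Mid1 was between -0.51 and -1.09 in clusters 6 and 15, bipolar cells, rods, cones and Müller glia. Rpl29 was at -0.87 in cluster 6 and -1.17 in cluster 15, and Gm10260 at -1.004 and -1.10. Gm47283, Mid1, Rpl29 and Gm10260 share sequence with other copies in the genome, so their counts could be split between copies and are uncertain. Gdpd3 was at -1.21, and Gm28370, an antisense gene, at -1.42.

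**Figure D5:**
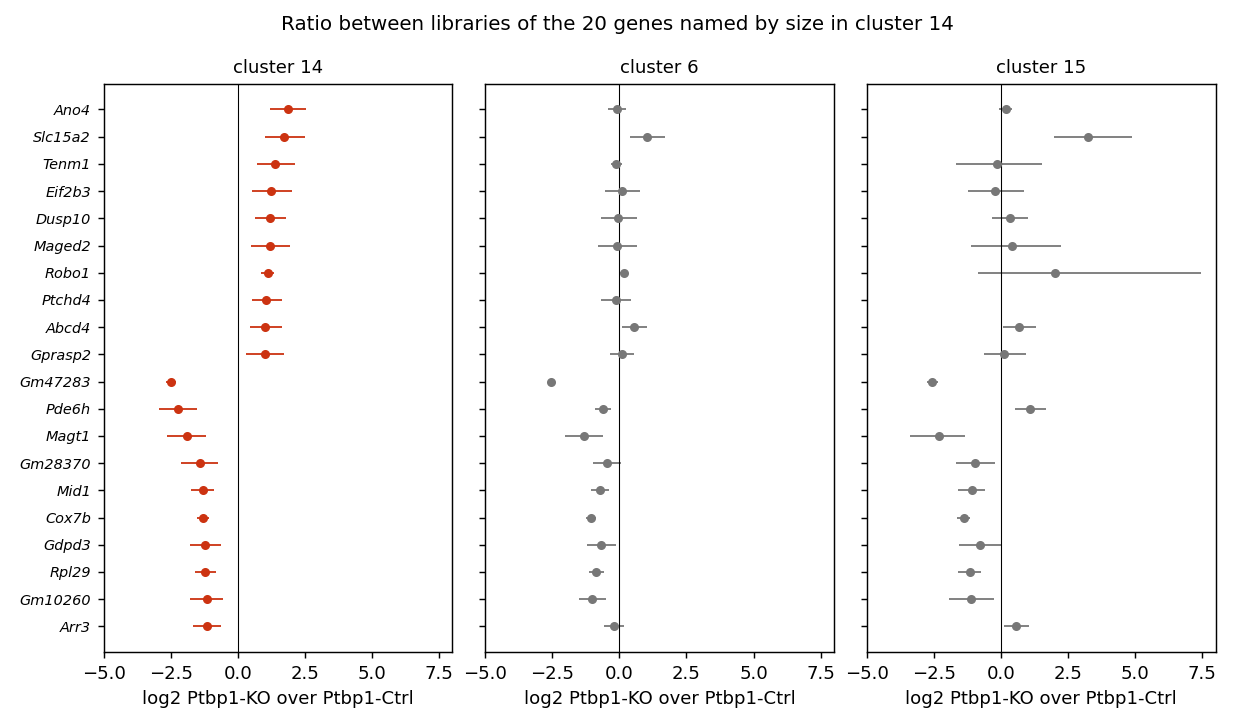
Log2 ratio of Ptbp1-KO over Ptbp1-Ctrl (horizontal axes) in clusters 14, 6 and 15 for the 20 genes named by their ratio in cluster 14, 10 from either end, with exact 95% counting intervals. Ano4 stood at 1.85 in cluster 14 and near 0 in the other clusters, while Gm47283 lay between -2.51 and -2.56 in all 3. No point is drawn for Ptchd4 in cluster 15, where 1 library had 0 UMIs.

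The remaining genes of the lower set, Pde6h and Arr3, are cone phototransduction genes, and they came from very few cells. Pde6h had a log2 ratio of -2.22 and Arr3 of -1.15. Cells with at least 10 cone-marker UMIs numbered 2 in Ptbp1-Ctrl and 1 in Ptbp1-KO, and the first 2 held 231 of the 281 cone-marker UMIs of the cluster while the last held 66 of 124. Without the 10% of cells with the highest shares of rod, cone, bipolar and Müller glia markers, the ratios were -0.24 for Pde6h and 0.040 for Arr3. Both genes are among these markers, so leaving out these cells had to remove many of their UMIs. The values are therefore no test of where the UMIs came from. Without only the richest cell of each library they were -1.71 and -2.37. Doublets were not called here, and the sources used here do not state their removal.

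RNA of other cell types was present in both libraries. Relative to their own cell type, rod markers were at like levels in the libraries, and cone, bipolar and Müller glia markers were lower in Ptbp1-KO. The 10 rod markers summed to 12.5% of their level in rods in each library. Bipolar markers summed to 9.18% and 7.15% of the bipolar level and the 6 cone markers to 1.49% and 0.444% of the cone level. Markers of Müller glia summed to 1911 (Ptbp1-Ctrl) and 1634 CPM (Ptbp1-KO), or 6.99% and 5.66% of the glial level, more than the 816 and 707 CPM of cluster 6 or the 180 and 202 CPM of cluster 15. Cells with at least 10 glial-marker UMIs numbered 14 and 16, and they held 905 of 1281 and 1005 of 1581 of these UMIs. Without them the glial sum was 623 and 663 CPM, slightly higher in Ptbp1-KO, and Glul, the glutamine synthetase of glia, stood at 89.5 and 82.9 CPM in place of 500 and 369 CPM. Sox9, which marks glial nuclei, was then at 0 in both libraries. Glul and Sox9 are on the list by which these cells were picked, so the fall of both and of the glial sum was built into the choice. Egfr, at 214 and 392 CPM in Müller glia, was at 222 and 243 CPM in cluster 14 without these cells. Igf1 was then at 350 and 332 CPM, but its glial level of 6.94 and 6.49 CPM was too low for their removal to lower it.

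The lists of neuronal genes gave small ratios between the libraries. Among amacrine transcription factors 13 of 26 were abundant enough, with 6 intervals above 0 and 1 below, against 6.2% and 6.99% of all genes, and a median log2 ratio of 0.16 against -0.01. Either way, 13.2% of all genes had an interval off 0, and the counts for the lists that follow are to be read against these shares. Lmo4, a LIM-domain cofactor, went from 252 to 359 CPM, a ratio of 0.51 (0.24 to 0.78), and had similar ratios of 0.62 in cluster 6 and 0.56 in cluster 15. Ebf3 had a ratio of 0.27 (0.09 to 0.45), against 1.22 in cluster 6. Nfia was the factor with an interval below 0, at -0.68 (-1.07 to -0.29), and much of its level came with the glia-rich cells, since without them it was at 82.9 and 63.4 CPM in place of 178 and 111 CPM. The part of these cells in its ratio was not tested.

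Transmitter genes kept their levels to within 2-fold where they were well detected. Slc6a9 had a log2 ratio of 0.33 (0.19 to 0.46), and 0.19 when cells were thinned to 1000 UMIs. Slc32a1 had 0.17 (-0.13 to 0.48), Gad2 0.08 (-0.72 to 0.90) and Cartpt -0.01 (-0.16 to 0.14). Esr1 was lower in Ptbp1-KO, with a ratio of -0.39 (-0.60 to -0.18).

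Among ionotropic glutamate receptors, 11 of 17 genes were abundant enough, with 3 intervals above 0, none below and a median of 0.08. Grik2, a kainate receptor subunit, went from 1307 to 1803 CPM, a ratio of 0.46 (0.35 to 0.58), and to 0.29 in thinned cells. Cluster 6 had a Grik2 ratio of 0.47 and cluster 15 of -0.25. Gria4 had 0.24 (0.13 to 0.35). Of the glycine receptor list, 3 of 6 genes were abundant enough and no interval lay off 0. Glra3, which was too sparse for that rule, went from 11 to 48 UMIs, a ratio of 1.60 (0.63 to 2.69). The 7 of 16 GABA receptor genes abundant enough had a median of 0.12, with 1 interval on either side of 0.

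Of calcium channel genes 7 of 17 were abundant enough, with a median of 0.11 and 1 interval off 0, near the share of all genes, that of the subunit Cacnb2, which went from 324 to 242 CPM, a ratio of -0.42 (-0.69 to -0.15). Potassium channels had 9 of 18 with a median of 0.14 and 2 intervals above 0, among them Kcnb2 at 0.18. Among the 13 with at least 20 UMIs, 6 were higher and 7 lower, with 2 intervals above 0 and 2 below. Kcna4 had the smallest ratio of these, -1.38, from 26.9 to 10.3 CPM. Sodium channels had 4 of 9 and no interval off 0. Genes of vesicle release had 16 of 21 with a median of 0.10 and 3 intervals above 0, among them Syt1 at 0.12, and 1 below, for the adhesion gene Nrxn3 at -0.12.

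Splicing regulators were examined because Ptbp1 is one. Of 20 genes, 13 were abundant enough, with no interval above 0, 1 below 0, no more than the share of all genes, and a median of 0.13. The one below 0 was Khdrbs3, an RNA-binding protein of neurons, from 222 to 164 CPM, a ratio of -0.44 (-0.77 to -0.10), against 0.07 in cluster 6 and 0.20 in cluster 15. Rbfox1, a neuronal splicing factor, was at 2082 and 2081 CPM. Genes of the response to dissociation had 3 of 12 abundant enough, with a median of -0.11 and 1 interval above 0, that of Hspa8 at 0.25 (0.04 to 0.46). Snhg11, a noncoding transcript of neurons, went from 2259 to 1633 CPM, a ratio of -0.47 (-0.57 to -0.37), and had the same direction in cluster 6 at -0.47 and in cluster 15 at -0.65.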

How the data were processed

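The authors made 10x Genomics libraries, aligned reads to mm10 with Cell Ranger 7.0.1 and filtered and clustered cells in Seurat, with 4000 variable genes and 12 principal components. The deposited table held raw UMI counts for 25778 genes in 30943 cells, not normalized. The deposited cell table gave the percent of mitochondrial UMIs, a cluster number and a cell type, used as deposited. A further 2 columns of that table were not used. All 30943 cells met the stated limits (above 200 and below 5000 genes, above 700 and below 10000 UMIs, under 20% mitochondrial). The annotation counted against and the use of intronic reads were not given in the sources used here.

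For each cluster and library, UMIs were added up over cells and expressed as CPM, with exact Poisson intervals. Log2 ratios had exact conditional binomial intervals and shares Clopper-Pearson intervals, at 95%. Genes compared had a mean of at least 50 CPM, and between libraries also 50 UMIs. For lists, this is meant by abundant enough. Named genes were Ptbp1, Ptbp2, members of gene lists (those with most UMIs or the largest ratios with at least 20 UMIs), the 10 with the largest and smallest ratio between libraries and the 20 furthest from other AC in both libraries. Members, lists and rules were chosen with earlier results of these data known. Positions are from GENCODE on GRCm38 (mm10). Scaling factors came from edgeR 4.0.16. The scripts were tested on simulated data. Some genes of the lists are not reported here by name.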

Additional observations from a re-analysis of the deposited data

Results flagged for a closer look

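Among the 20 genes named by their ratio between libraries, 2 moved in opposite directions in cluster 14 and cluster 15, each with a counting interval on its own side of 0. Pde6h had a log2 ratio of Ptbp1-KO over Ptbp1-Ctrl of -2.22 in cluster 14 and 1.09 in cluster 15. Arr3 had -1.15 in cluster 14 and 0.57 in cluster 15. Both are cone genes, and the difference between the clusters was not tested, since there was 1 library per genotype. In cluster 14, 1 cell of Ptbp1-Ctrl held 29 of the 74 Pde6h UMIs of that library, and 1 cell of each library held 40 of 83 and 42 of 54 Arr3 UMIs.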

How the results depend on the processing

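No paired analysis was possible because each genotype had 1 library, and for the same reason no replicate could be left out. Leaving out the 10% of cells highest in markers of other types gave shares of AC of 30.7% and 20.9%. The share of cluster 14 among all cells became 1.84% in Ptbp1-Ctrl and 1.90% in Ptbp1-KO with cells of at least 1000 UMIs, and 3.50% and 4.10% once rods were left out of the denominator. It became 1.99% in Ptbp1-KO when every cell of that library was thinned by the AC depth ratio, which removed shallow rods from the denominator. Of 6321 genes compared between libraries with a minimum of 20 CPM, 43 were at least 2-fold higher and 33 lower. The counts were 1 and 2 of 950 with a minimum of 200 CPM, and 464 and 441 of 11448 with at least 10 UMIs and no CPM minimum. With cells thinned to 1000 UMIs 14 were higher and 12 lower of 1931 genes, or 1.35% either way against 0.501% of 4390 in the main comparison. Without cells rich in glial markers 14 were higher and 17 lower of 4394, an alternative chosen after the data had been seen. Slc6a9 had a UMI in 93.3% and 99.1% of unthinned cells, in 50.2% and 58.4% at 700 UMIs, and at least 2 UMIs in 78.0% and 94.9%. The Arr3 ratio between libraries reversed to 0.40 with thinned cells and to 0.040 without the 10% of cells, and went to -2.37 without the cell richest in Arr3 in each library, a further alternative chosen after the data had been seen. Of the values for named genes between libraries under the alternatives, 307 stayed within the counting interval, 12 moved outside it in the same direction and these 2 reversed. Of those for cluster 14 over the other AC, 172 stayed within it and 34 moved outside it with the same sign. Subtracting the pooled profile of the library, scaled to 25.2% in each, took Mid1 from -1.32 to -2.19. The TMM scaling moved log2 ratios by -0.03. Depth limits genes under about 20 UMIs, for which few ratios can be told from counting error.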
